A study of Homo sapiens with 6 samples.

Results

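The transcripts of 10 human genes of the centrosome and of microtubule anchoring are described here in sorted breast cancer cells. The genes, NINL, KIZ, NIN, PCNT, CEP192, CDK5RAP2, CNTROB, ODF2, CEP250 and AKAP9, were taken by name through their Entrez Gene IDs, and all 10 were found among 18795 genes. NINL and KIZ were picked because they differed in opposite directions between keratin 14 positive and keratin 18 only cells, so those values are given as a description with no test. The other 8 were added for their place in the same structure, and all 10 passed the minimum mean of 1 FPKM used for testing.

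The study sequenced RNA from MDA-MB-468 and HCC70, both established human lines of basal-like breast cancer. The cells were grown with serum, detached with trypsin, fixed and permeabilized in methanol and, after antibody staining, separated by FACS into keratin 18 and keratin 14 positive (K18+K14+), keratin 18 and vimentin positive (K18+Vim+) and keratin 18 positive (K18+) cells. All groups carry keratin 18, a keratin of luminal epithelium, while keratin 14 marks basal epithelium and vimentin marks mesenchymal cells. Each line gave 1 library per population, hence 2 libraries per population, 3 per line and 6 in all, and the labels do not say whether the sorted fractions of a line came from the same culture. The labels give the K18+Vim+ and K18+ libraries of HCC70 the same index sequence and do not say whether they shared a lane. What this means for the values that set these libraries against each other was not tested. The question put by the series is how the subpopulations of such tumours differ, with symmetric and asymmetric cell division named in its title.

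The centrosome is a pair of centrioles surrounded by pericentriolar material, from which microtubules are nucleated by gamma-tubulin ring complexes. The older centriole carries appendages on which microtubule minus ends are anchored, and a fibrous linker holds the centrosomes together until mitosis, when the pericentriolar material grows under the kinases PLK1 and Aurora A. Mother and daughter centrosomes thus differ in composition, and in fly neural stem cells they are inherited unequally at asymmetric division. NINL encodes ninein-like protein, which promotes microtubule nucleation at the interphase centrosome and leaves it at mitotic entry once phosphorylated by PLK1. KIZ encodes kizuna, a PLK1 substrate that keeps the pericentriolar material attached during mitosis.

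NINL and KIZ both lie on chromosome 20, as does CEP250. The pair carries the main contrast of this report, so the sequences around its transcription starts are shown. They are the RefSeq promoter windows of 300 bases in build GRCh38.p14, read 5′ to 3′ on the strand of the gene, with each match to the GC box letters GGGCGG, or CCGCCC on the other strand, in capitals.
NINL (chr20:25585482-25585781, minus strand): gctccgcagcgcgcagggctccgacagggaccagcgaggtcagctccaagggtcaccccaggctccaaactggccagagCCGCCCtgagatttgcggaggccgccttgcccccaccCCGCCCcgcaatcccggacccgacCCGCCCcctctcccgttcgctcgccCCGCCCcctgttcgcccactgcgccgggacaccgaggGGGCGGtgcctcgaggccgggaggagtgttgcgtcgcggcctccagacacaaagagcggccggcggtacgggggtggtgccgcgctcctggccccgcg
KIZ (chr20:21125725-21126024, plus strand, 1 of 2 starts listed): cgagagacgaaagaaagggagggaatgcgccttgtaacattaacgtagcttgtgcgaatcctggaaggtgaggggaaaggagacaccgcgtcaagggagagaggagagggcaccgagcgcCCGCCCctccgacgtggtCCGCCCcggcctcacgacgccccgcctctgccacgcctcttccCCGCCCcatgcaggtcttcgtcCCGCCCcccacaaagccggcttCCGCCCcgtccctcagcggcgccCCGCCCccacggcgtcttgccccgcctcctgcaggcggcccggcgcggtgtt
The NINL window holds 5 such matches and the KIZ window 6, and 45.0% of the 35116 promoter windows of the same length hold at least 1. The letters CCAAT or ATTGG are in 0 places of either window, against 34.6% of all windows with a match, and TTTGAA or TTCAAA, the core letters of the cell cycle homology region, are likewise in 0 places, against 15.2%. The share of G and C is 75.0% in the NINL window and 69.7% in the KIZ window, against a median of 58.7% over all windows. These matches describe letters only.

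Values are FPKM as deposited by the authors, that is, fragment counts scaled by transcript length and library size, so levels of different genes can be set side by side. The read numbers behind them are unknown. The median over the 12454 genes tested lay between 8.12 and 11.8 FPKM per library. Of the sort antigens, KRT14 and VIM were each higher in the cells sorted for them than in K18+ cells of the same line. KRT14 was measured at 279 FPKM in K18+K14+ cells against 47.8 FPKM in K18+ cells of MDA-MB-468, and at 48.6 FPKM in K18+K14+ cells against 15.3 FPKM in K18+ cells of HCC70. VIM was measured at 259 FPKM in K18+Vim+ cells against 12.2 FPKM in K18+ cells of MDA-MB-468, and at 54.8 FPKM in K18+Vim+ cells against 13.4 FPKM in K18+ cells of HCC70. One library, that labelled as K18+Vim+ cells of MDA-MB-468, was unlike the others of its line. Its log2 values had a Pearson correlation across genes of 0.828 with the K18+ library, whereas the K18+K14+ library had 0.919 and the HCC70 pairs lay between 0.967 and 0.978. SMAD4 and RB1, both known to be deleted in MDA-MB-468, were listed there at 5.19 and 6.68 FPKM, against 0.566 and 0.307 FPKM in K18+ cells, and EGFR, amplified in this line, was listed at 10.4 against 153 FPKM. It also had less KRT18, at 67.7 against 464 FPKM, and less EPCAM, an epithelial adhesion molecule, at 8.41 against 115 FPKM. Values from it are given below as those of the library so labelled. Of 12 markers of fibroblasts, endothelium and red cells, between 1 and 3 reached 1 FPKM in any library, with a summed level of 5.32 to 12.2 FPKM. PECAM1, an endothelial marker, had the floor value of 0.1 FPKM throughout. Of 6 leukocyte markers, 1 or 2 reached it, and CD14 made most of the sum of 4.03 to 145 FPKM. In sorted pools, a lower level per cell and fewer cells with the transcript cannot be told apart.

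**Figure D1:**
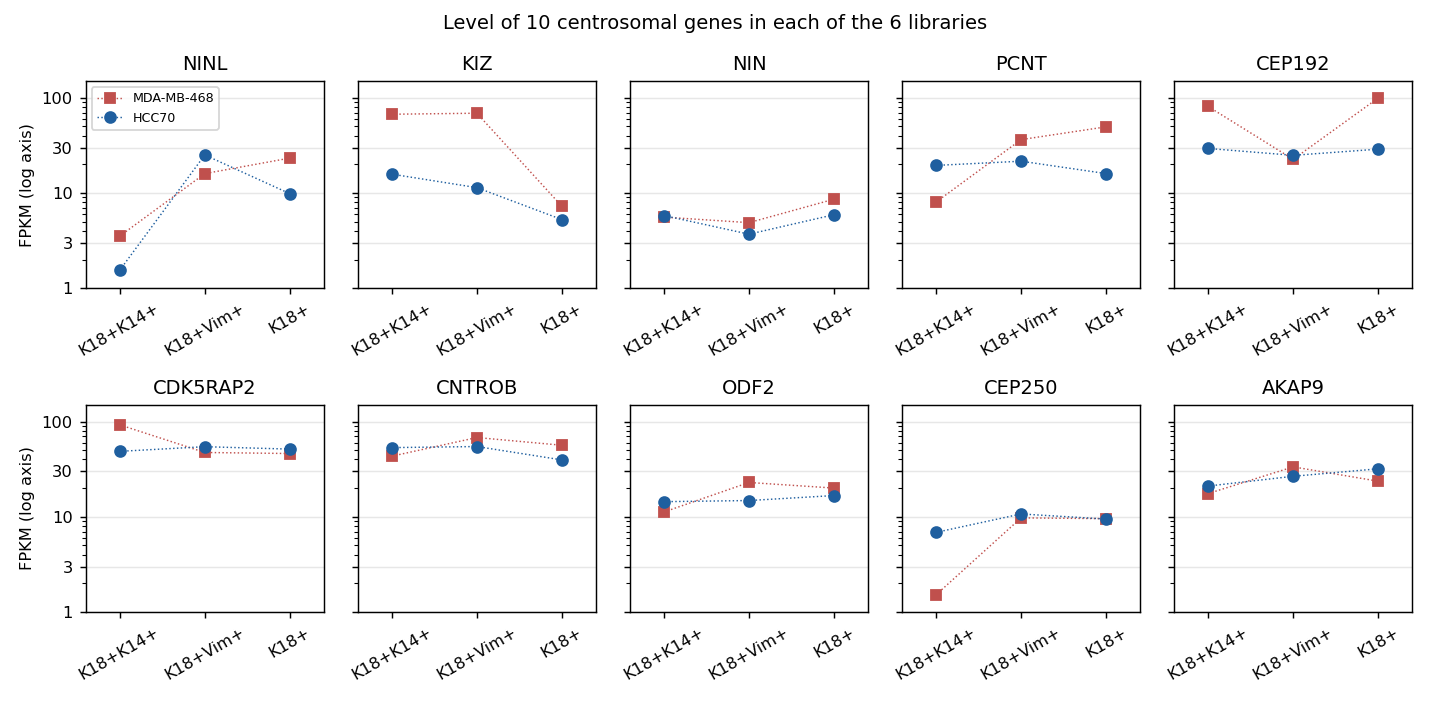
Level of each of the 10 genes in FPKM on a log axis, by sorted population; squares are MDA-MB-468, circles HCC70, 1 library each, joined by dotted lines within a line. NINL is lowest in the K18+K14+ library of both lines and KIZ is lowest in the K18+ library of both.

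NINL was scarce in keratin 14 positive cells. Its MDA-MB-468 levels were 3.52 FPKM in K18+K14+ cells, 16.0 FPKM in the library labelled K18+Vim+ and 23.3 FPKM in K18+ cells. In HCC70 it stood at 1.54 FPKM in K18+K14+ cells, 25.1 FPKM in K18+Vim+ cells and 9.84 FPKM in K18+ cells. The K18+K14+ library was thus the lowest in both lines, as for 17.6% of all genes tested, and the other 4 libraries spanned 9.84 to 25.1 FPKM. K18+ cells had 6.62 times the NINL level of K18+K14+ cells in MDA-MB-468 and 6.38 times in HCC70. On the scale of log2(FPKM + 1), used for all log2 values here, the ratios of K18+K14+ to K18+ were -2.43 and -2.09. Among the genes tested, NINL ranked at percentile 29.7 in K18+K14+ cells against 69.5 in K18+ cells of MDA-MB-468, and at 13.0 in K18+K14+ cells against 45.3 in K18+ cells of HCC70. The order of K18+Vim+ and K18+ cells was not the same in the lines: K18+Vim+ was lower in MDA-MB-468, with a ratio of -0.52, and higher in HCC70, with 1.27.

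KIZ differed in the opposite direction between K18+K14+ and K18+ cells, for which it was picked, and was lowest in cells positive for keratin 18 only. Its MDA-MB-468 levels were 67.2 FPKM in K18+K14+ cells, 68.9 FPKM in the library labelled K18+Vim+ and 7.23 FPKM in K18+ cells. In HCC70 it stood at 15.8 FPKM in K18+K14+ cells, 11.4 FPKM in K18+Vim+ cells and 5.26 FPKM in K18+ cells. K18+ was the lowest population in both lines, as for 6.21% of all genes tested. Its 2 libraries were at 5.26 and 7.23 FPKM, and the other 4 spanned 11.4 to 68.9 FPKM. K18+K14+ cells had 9.30 times the level of K18+ cells in MDA-MB-468 and 2.99 times in HCC70, with log2 ratios of 3.05 and 1.42. K18+Vim+ cells had 9.54 times the K18+ level in MDA-MB-468 and 2.16 times in HCC70, with log2 ratios of 3.09 and 0.98. If the library unlike its line is set aside, the K18+Vim+ values rest on HCC70 alone. Both comparisons share the K18+ libraries, so that they are not independent. KIZ overlaps KIZ-AS1, an antisense gene that is not among the IDs of the table, in the RefSeq annotation. Whether strand was used in counting is not given in the sources used here, so reads of the pair cannot be told apart. The same holds for ODF2 with ODF2-AS1 and for CEP250 with CEP250-AS1. Further overlaps in the annotation were those of NIN with LOC124903313 and LOC105370489 and of PCNT with LOC128092249 and RPL18AP2. KIZ also overlaps RNA5SP477 and RPS15AP1, and ODF2 overlaps LOC124902281. How many reads these overlapping genes gave is not known.

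NINL and KIZ stood at the edges of all genes in both lines. A log2 ratio of K18+K14+ to K18+ of at most -1 in both lines was found for 92 of 12454 genes (0.739%), NINL among them, and a ratio of at least 1 in both lines for 32 genes (0.257%), KIZ among them. As the pair was picked for these ratios, nothing is read from that. Their neighbours on chromosome 20 had other values. The nearest tested genes around NINL in the RefSeq gene order were PYGB, ABHD12 and GINS1 on one side and ZNF337, FAM182B and HM13 on the other. Their log2 ratios of K18+K14+ to K18+ lay between -0.73 and 0.75 in MDA-MB-468 and between -0.57 and 0.54 in HCC70. Around KIZ the nearest were NAA20, CRNKL1 and RALGAPA2 on one side and XRN2, NXT1 and GZF1 on the other. Of these, CRNKL1, a splicing factor gene, had 50.1 FPKM in K18+K14+ cells and 13.9 FPKM in K18+ cells of MDA-MB-468, a ratio of 1.78, but 8.21 and 9.40 FPKM in the same cells of HCC70. XRN2, which encodes a nuclear exonuclease, had ratios of -1.37 and -0.79, the reverse of KIZ.

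**Figure D2:**
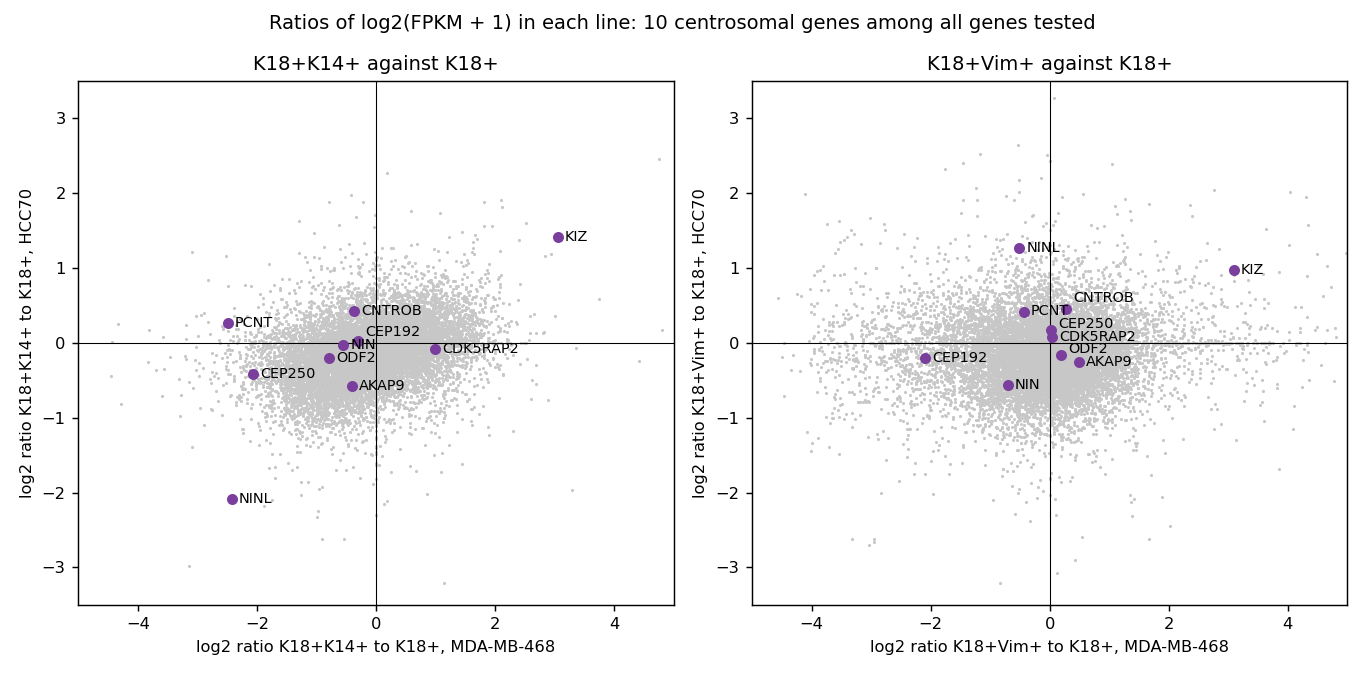
Log2 ratio of K18+K14+ to K18+ (left panel) and of K18+Vim+ to K18+ (right panel) in MDA-MB-468 on the x axis and HCC70 on the y axis, on log2(FPKM + 1) values, for all 12454 genes tested (grey) and the 10 genes (purple); 9 grey points lie outside the axes. NINL and KIZ lie in opposite corners on the left, and on the right KIZ keeps a positive ratio in both lines while NINL lies above 0 in HCC70 only.

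None of the other 8 genes had a log2 ratio beyond 1 in size in both lines. With limma across all 12454 genes, 0 of the 8 passed an adjusted p of 0.05 in K18+K14+ against K18+ cells, as did 0 of all genes tested (0%). Their adjusted p ranged from 0.855 to 0.995. An unadjusted p under 0.05 was found for 1 of them, CEP250, against 3.44% of all genes. The spread in that fit is how far the 2 lines disagree, and it includes the library unlike its line. In both lines 4 of the 8 were lower in K18+K14+ cells, namely NIN, ODF2, CEP250 and AKAP9, and with NINL 5 of 10. Among all genes tested 43.7% were lower in both lines. None of the 8 was higher in both lines, where KIZ is the only member, against 20.2% of all genes. The median ratio of the 8 was -0.48 in MDA-MB-468, against -0.17 over all genes, and -0.05 in HCC70, against -0.15.

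Of the genes of the mother centriole and its anchoring sites, NIN encodes ninein, the paralogue of NINL that anchors minus ends at the appendages. It stood at 5.59 FPKM in K18+K14+ cells, 4.89 FPKM in the library labelled K18+Vim+ and 8.63 FPKM in K18+ cells of MDA-MB-468. In HCC70 it stood at 5.81 FPKM in K18+K14+ cells, 3.70 FPKM in K18+Vim+ cells and 5.93 FPKM in K18+ cells. K18+Vim+ was lowest in both lines, and NIN spanned 2.33-fold over the 6 libraries where NINL spanned 16.3-fold. ODF2, needed to form the appendages, stood at 11.2 FPKM in K18+K14+ cells, 22.9 FPKM in the library labelled K18+Vim+ and 20 FPKM in K18+ cells of MDA-MB-468. Its HCC70 levels were 14.4 FPKM in K18+K14+ cells, 14.8 FPKM in K18+Vim+ cells and 16.7 FPKM in K18+ cells. Like NINL, ODF2 was lowest in K18+K14+ cells of both lines, but in HCC70 by a log2 ratio of only -0.21. CNTROB encodes centrobin, a protein of the daughter centriole needed for centriole duplication. It stood at 43.2 FPKM in K18+K14+ cells, 67.9 FPKM in the library labelled K18+Vim+ and 56.3 FPKM in K18+ cells of MDA-MB-468, and in HCC70 at 53.2 FPKM in K18+K14+ cells, 54.6 FPKM in K18+Vim+ cells and 39.5 FPKM in K18+ cells. CNTROB was highest in K18+Vim+ cells of both lines, as was CEP250 (8.56% of all genes), and had the narrowest span of the 10, 1.72-fold.

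CEP250, which encodes the linker protein C-Nap1, was lowest in K18+K14+ cells of MDA-MB-468. There it was listed at 1.51 FPKM, against 9.74 FPKM in the library labelled K18+Vim+ and 9.55 FPKM in K18+ cells. In HCC70 the levels were 6.85 FPKM in K18+K14+ cells, 10.7 FPKM in K18+Vim+ cells and 9.45 FPKM in K18+ cells. The order of the 3 populations was the same in the lines, with K18+K14+ lowest in both (17.6% of all genes). In K18+K14+ against K18+ cells the fitted log2 difference was -1.24 ± 0.51 (SE over 2 libraries a population; limma adjusted p = 0.855; lower in 2 of 2 lines), and that between K18+Vim+ and K18+K14+ was 1.34 ± 0.51 (limma adjusted p = 0.682). The first was -2.04 when K18+K14+ cells of HCC70 were left out and -0.45 when those of MDA-MB-468 were, and the second was 2.13 and 0.54 in the same fits. K18+K14+ was the lowest of the 3 populations in both lines for 4 of the 10 genes, NINL, CEP250, ODF2 and AKAP9, against 17.6% of all genes. NINL was chosen on part of that pattern, and the members were added with earlier results of these data known.

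Among the scaffolds of the pericentriolar material, PCNT, which encodes pericentrin, had ratios of opposite sign in the lines. It stood at 8.02 FPKM in K18+K14+ cells, 36.4 FPKM in the library labelled K18+Vim+ and 49.6 FPKM in K18+ cells of MDA-MB-468, and in HCC70 at 19.5 FPKM in K18+K14+ cells, 21.6 FPKM in K18+Vim+ cells and 16.0 FPKM in K18+ cells. K18+K14+ was thus the lowest population in MDA-MB-468, by a log2 ratio of -2.49 to K18+, but lay between the other populations in HCC70, with 0.27. CEP192, which recruits Aurora A and PLK1 to the centrosome, stood at 81.2 FPKM in K18+K14+ cells, 22.6 FPKM in the library labelled K18+Vim+ and 99.9 FPKM in K18+ cells of MDA-MB-468. In HCC70 it stood at 29.4 FPKM in K18+K14+ cells, 24.9 FPKM in K18+Vim+ cells and 28.9 FPKM in K18+ cells. In the library unlike its line, CEP192 was thus nearer to the HCC70 levels than to those of its own line. KIZ, at 68.9 FPKM in the same library, was close to the 67.2 FPKM of K18+K14+ cells of MDA-MB-468. K18+ cells of MDA-MB-468 had 7.23 FPKM, within the 5.26 to 15.8 FPKM of HCC70, so KIZ does not separate the lines. PCM1 and CEP72, described further on, were at 54.3 and 8.32 FPKM in the library unlike its line. These values were within or near the levels of MDA-MB-468 and outside those of HCC70. Both genes were named for a line difference found in a fit that included this library. Nothing on the identity of the library is read from CEP192, KIZ, PCM1 or CEP72.

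CDK5RAP2 and AKAP9 encode proteins that tether gamma-tubulin complexes, AKAP9 at the Golgi as well as at the centrosome. CDK5RAP2 stood at 92.4 FPKM in K18+K14+ cells, 47.3 FPKM in the library labelled K18+Vim+ and 46.1 FPKM in K18+ cells of MDA-MB-468. In HCC70 it stood at 48.6 FPKM in K18+K14+ cells, 54.4 FPKM in K18+Vim+ cells and 51.3 FPKM in K18+ cells. Apart from the MDA-MB-468 K18+K14+ library, which had the highest value, its levels lay between 46.1 and 54.4 FPKM. AKAP9 stood at 17.5 FPKM in K18+K14+ cells, 33.4 FPKM in the library labelled K18+Vim+ and 23.6 FPKM in K18+ cells of MDA-MB-468, and in HCC70 at 21.0 FPKM in K18+K14+ cells, 26.6 FPKM in K18+Vim+ cells and 31.9 FPKM in K18+ cells. K18+K14+ was lowest in both lines, with log2 ratios to K18+ of -0.41 and -0.58. In K18+ cells the order of the 10 genes by level was led by CEP192 at 99.9 FPKM in MDA-MB-468 and by CDK5RAP2 at 51.3 FPKM in HCC70, and KIZ was the lowest in both.

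Transcript length varied with these ratios. The longest coding transcript of the 10 genes ran from 3769 bases for CNTROB to 15703 bases for CEP250, with 4969 bases for NINL and 3856 bases for KIZ. Across all genes with a length, the Spearman correlation between the K18+K14+ to K18+ ratio and length was -0.325 in MDA-MB-468 and -0.248 in HCC70, so that long transcripts had lower values in the K18+K14+ libraries. After a length trend was removed within each library, the NINL ratios were -2.02 in MDA-MB-468 and -1.84 in HCC70, and those of KIZ were 3.38 and 1.62. AKAP9 moved to 0.03 and -0.24, NIN to -0.10 and 0.30, and CEP250 to -1.65 and -0.06. The median over the 10 genes moved to -0.08 and 0.25. The NINL and KIZ ratios stayed beyond 1 in size after this correction, while the lower values of AKAP9 and NIN no longer held in both lines. Of the 10, NINL and CEP250 had a ratio below 0 in both lines after it, together with ODF2, whose HCC70 value was 0.00 to 2 decimals (29.7% of all genes). KIZ, CEP192 and CDK5RAP2 had a ratio above 0 in both lines (31.8% of all genes).

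**Figure D3:**
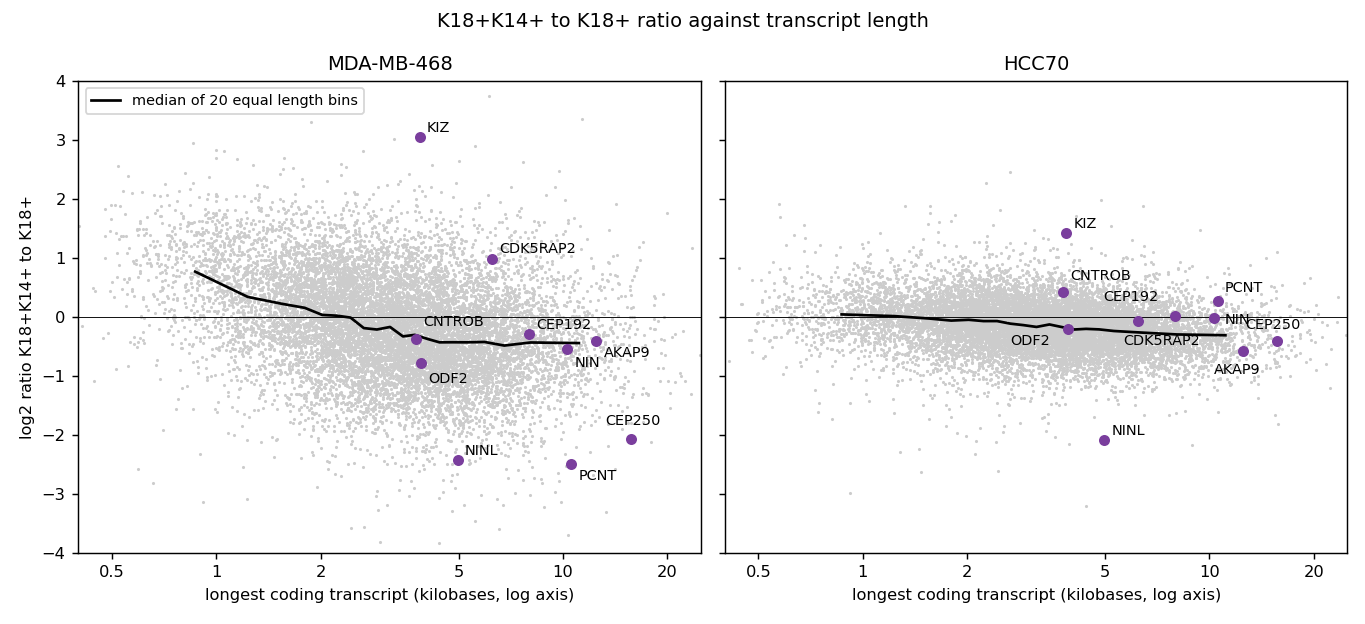
Log2 ratio of K18+K14+ to K18+ against the length of the longest coding transcript (log axis) in MDA-MB-468 (left) and HCC70 (right); grey points are genes tested, the black line is the median of 20 equal length bins and purple points are the 10 genes; 42 grey points lie outside the axes. The median falls with length in both lines, and NINL and KIZ lie far from it on opposite sides.

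K18+Vim+ cells were then set against K18+ cells. With limma 0 of 10 genes passed, as did 0 of all genes tested (0%), and the adjusted p of the 10 ranged from 0.863 to 0.999. An unadjusted p under 0.05 was found for 1 gene, KIZ, against 4.27% of all genes. KIZ was chosen on the K18+ libraries used here. Values were higher in K18+Vim+ cells of both lines for 4 genes, KIZ, CDK5RAP2, CNTROB and CEP250, against 16.5% of all genes, and lower in both for 2, NIN and CEP192, against 33.9%. A ratio of at least 1 in both lines was found for 0 of the 10 (0.377% of all genes), as was one of at most -1 (0.715%). For CDK5RAP2 and CEP250 the ratios were small, from 0.03 to 0.17. CEP192 had log2 ratios of -2.10 in MDA-MB-468 and -0.21 in HCC70, and its fitted difference was -1.15 ± 0.55 (SE over 2 libraries a population; limma adjusted p = 0.863). If K18+Vim+ cells of HCC70 are left out, it was -2.02 (limma adjusted p = 0.0221), in a fit where the library unlike its line is the sole K18+Vim+ library and 12.0% of all genes passed. If that library is left out instead, it was -0.29 (limma adjusted p = 0.940).

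K18+Vim+ and K18+K14+ cells were also set against each other, with the same libraries. Values were higher in K18+Vim+ cells of both lines for 6 genes, NINL, PCNT, CNTROB, ODF2, CEP250 and AKAP9, against 25.6% of all genes, and lower in both for NIN and CEP192, against 23.7%. The MDA-MB-468 side of these counts is the library unlike its line. In HCC70 the log2 ratios of the 6 were 0.04 for CNTROB and ODF2, 0.14 for PCNT, 0.32 for AKAP9, 0.58 for CEP250 and 3.36 for NINL. NINL in K18+Vim+ cells was at 4.54 times the K18+K14+ level in MDA-MB-468 and 16.3 times in HCC70, and was the 1 gene of the 10 with a ratio of at least 1 in both lines (0.851% of all genes), while 0 had one of at most -1 (0.915%). KIZ differed little, at 1.03 times in MDA-MB-468 and 0.721 times in HCC70. Here too 0 of 10 genes and 0 of all genes (0%) passed limma. An unadjusted p under 0.05 was found for 2 of the 10, NINL and CEP250, against 5.46% of all genes. NINL was chosen on the K18+K14+ libraries that stand in this comparison.

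Between the lines, 0 of 10 genes passed limma over all 6 libraries. Of all genes, 12.2% passed (4.54% higher and 7.68% lower in MDA-MB-468). KIZ was the 1 gene of the 10 with an unadjusted p under 0.05, against 4116 of the 12454 genes tested. NINL and KIZ were chosen on the K18+K14+ and K18+ libraries, which also stand in this comparison. KIZ averaged 47.8 ± 35.1 FPKM in MDA-MB-468 and 10.8 ± 5.27 FPKM in HCC70 (SD, n = 3 libraries each) and was higher in MDA-MB-468 in each of the 3 populations. Its fitted log2 difference was 1.64 ± 0.46 (SE, limma adjusted p = 0.0656). CEP192 averaged 67.9 ± 40.3 FPKM in MDA-MB-468 and 27.7 ± 2.44 FPKM in HCC70 (SD, n = 3 libraries each), with a difference of 1.02 ± 0.45 (SE, limma adjusted p = 0.168). With only the K18+K14+ and K18+ libraries, CEP192 stood at 90.5 ± 13.2 FPKM in MDA-MB-468 and 29.1 ± 0.327 FPKM in HCC70 (SD, n = 2 libraries each). In that fit the difference was 1.59 ± 0.35 (limma adjusted p = 0.0118, higher in 2 of 2 populations), and CEP192 was the only 1 of the 10 to pass, against 27.0% of all genes. It was also the 1 gene to pass when the library unlike its line was left out alone, against 26.9%, or the HCC70 K18+Vim+ library alone, against 27.0%. Its difference was smaller in the other fits with 1 library fewer, at 0.65 without either K18+ library (limma adjusted p = 0.598 without that of MDA-MB-468 and 0.593 without that of HCC70) and 0.81 without either K18+K14+ library (limma adjusted p = 0.423 without that of MDA-MB-468 and 0.424 without that of HCC70). NINL differed by 0.46 ± 0.42 over all libraries (limma adjusted p = 0.477) and by 1.0 ± 0.34 without the K18+Vim+ libraries (limma adjusted p = 0.0580). The other 7 genes had fitted differences from -0.59 for CEP250 to 0.37 for PCNT over all libraries, with limma adjusted p from 0.358 to 0.818. None of the 10 separated the lines without overlap over all 6 libraries, against 20.1% of all genes above and 21.0% below. Over the K18+K14+ and K18+ libraries, CEP192 alone lay above in MDA-MB-468 without overlap (30.4% of all genes) and 0 lay below (32.2%).

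**Figure D4:**
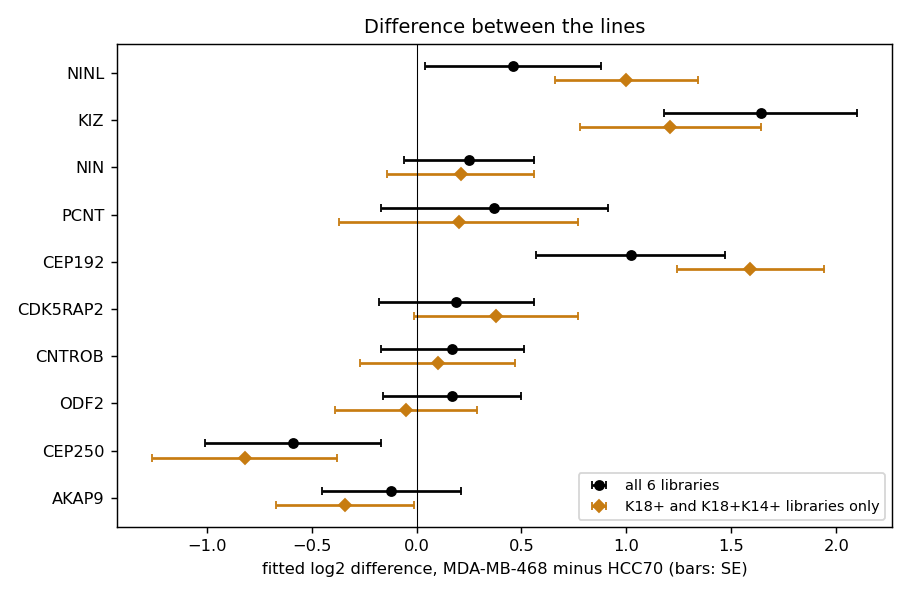
Fitted log2 difference between MDA-MB-468 and HCC70 for the 10 genes, from all 6 libraries (black circles) and from the K18+K14+ and K18+ libraries only (orange diamonds); bars are standard errors. CEP192 and KIZ have the highest values, and CEP192 is further from 0, at 1.59, without the K18+Vim+ libraries.

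The wider set of centrosome genes gives a setting for these values. From 7 lists of centrosome and anchoring genes, 90 distinct genes without the 10, 88 were tested. In K18+K14+ against K18+ cells, lower values in both lines were found for 51 of 88 genes (58.0%) and higher ones for 10 (11.4%), against 43.7% and 20.2% of all genes tested. The median ratios were -0.63 in MDA-MB-468 and -0.29 in HCC70, against -0.17 and -0.15 over all genes. With limma 0 of the 88 passed, and 4 of the 88 had an unadjusted p under 0.05, against 3.44% of all genes tested. In K18+Vim+ against K18+ cells 14 of the 88 (15.9%) were higher and 28 (31.8%) lower in both lines, close to the 16.5% and 33.9% of all genes, and 0 passed. The 18 genes of G2 and M phase had medians in K18+K14+ against K18+ cells of -1.16 and -0.18, 11 of 18 lower in both lines and 4 higher. The share of these values that goes with transcript length or with cycling cells was not tested.

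Directions differed within the lists, in each of which 0 genes passed limma. Of all genes tested, 43.7% were lower and 20.2% higher in K18+K14+ cells of both lines. The genes named here were picked for large ratios of the same sign in both lines. Of 10 gamma-tubulin ring complex genes, 3 had higher values in K18+K14+ cells of both lines and 3 lower ones, with MZT2B, a small subunit, showing 586 FPKM in K18+K14+ against 192 FPKM in K18+ cells of MDA-MB-468 and with 292 against 218 FPKM in HCC70. Its copy MZT2A is nearly identical in sequence, so how reads were split between them is uncertain. For centriole assembly the counts were 12 lower and 2 higher of 19. In it CETN3, a centrin, had 7.30 FPKM in K18+K14+ against 19.1 FPKM in K18+ cells of MDA-MB-468 and 6.23 against 18.8 FPKM in HCC70, and SASS6, which builds the centriole cartwheel, stood at 3.98 against 8.54 FPKM and 4.38 against 8.65 FPKM. Of the appendage genes 6 of 11 were lower and 1 higher, among them CEP170, a subdistal appendage protein gene, at 2.95 against 9.41 FPKM and 3.32 against 7.60 FPKM. Among mitotic centrosome kinases and their partners 10 of 14 were lower and 1 higher. NEK7, a mitotic kinase, had 2.37 against 8.87 FPKM in MDA-MB-468 and 8.26 against 16.0 FPKM in HCC70, and CDK1, the kinase that drives mitotic entry, had 41.6 against 104 FPKM and 45.6 against 64.2 FPKM. Of the 10 centriolar satellite genes 6 were lower and 2 higher, of which CEP131 stood at 117 against 55.4 FPKM and 36.9 against 24.0 FPKM. For the linker list the counts were 3 lower and 1 higher of 6, and for minus-end, end-binding and dynein anchoring genes 11 lower and 1 higher of 19. The single higher gene of the last list was DCTN1, which encodes a dynactin subunit, at 187 against 139 FPKM and 187 against 124 FPKM.

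**Figure D5:**
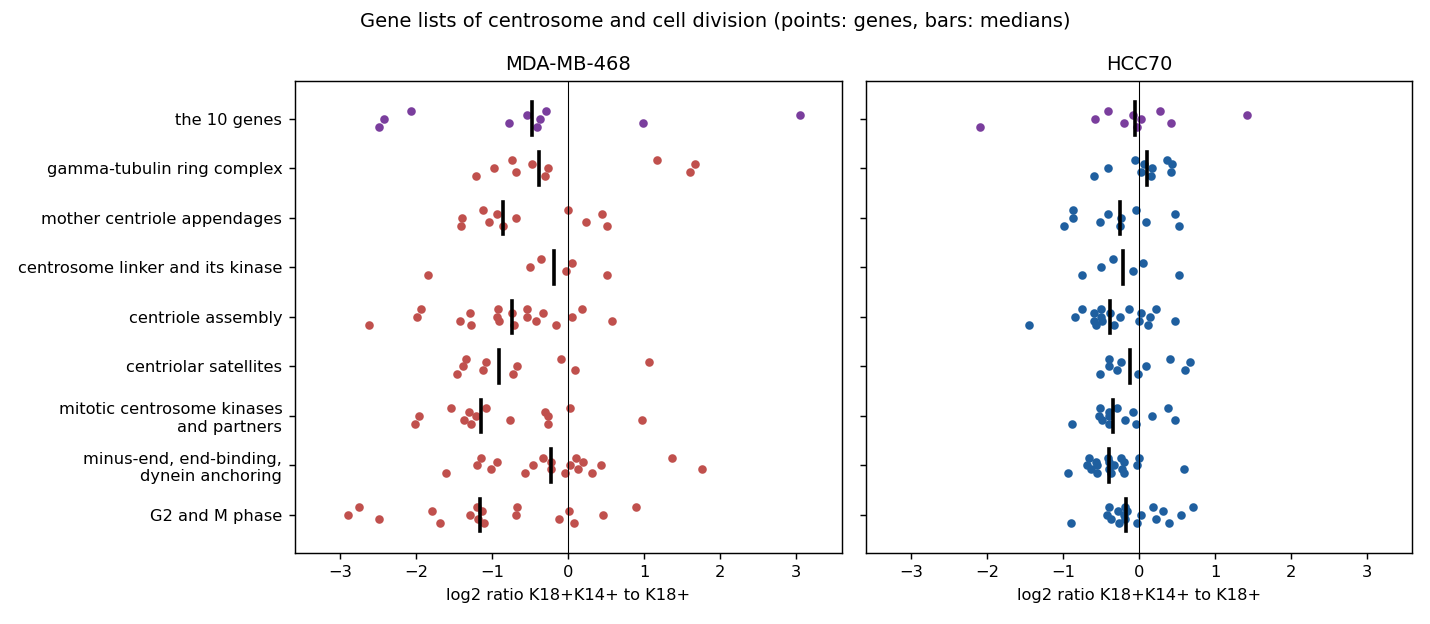
Log2 ratio of K18+K14+ to K18+ for the genes of each list with a mean of at least 1 FPKM, in MDA-MB-468 (left) and HCC70 (right); points are genes and black bars list medians. In the top row KIZ is highest in both lines, at 3.05 in MDA-MB-468 and 1.42 in HCC70. NINL, at -2.43 and -2.09, is lowest in HCC70 only, as PCNT has -2.49 in MDA-MB-468.

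Between the lines 6 of the 88 list genes passed limma (6.82%), 2 higher (2.27%) and 4 lower (4.55%) in MDA-MB-468, against 12.2%, 4.54% and 7.68% of all genes tested. The share was thus below that of all genes, and the 6 are given as single values. PCM1, the scaffold of centriolar satellites, lay between 54.3 and 64.6 FPKM in MDA-MB-468 and between 16.3 and 22.2 FPKM in HCC70, a fitted difference of 1.57 ± 0.32 (SE, limma adjusted p = 0.0318). CEP72, a satellite protein gene, lay between 5.76 and 9.83 FPKM against 33.3 to 51.9 FPKM, a difference of -2.24 ± 0.36 (SE, limma adjusted p = 0.0188). For both genes, named after their values were seen, the 3 libraries of each line did not overlap, as for 20.1% of all genes above and 21.0% below in MDA-MB-468. The others were MZT2A, which was higher, and SPICE1, MAPRE3 and TUBG2, which were lower, and MZT2A and TUBG2 each have a near-identical copy. The 6 calls held when either K18+Vim+ library was left out, but 0 of 6 held when any 1 K18+K14+ or K18+ library was, with PCM1 then at limma adjusted p of 0.124 to 0.199 and CEP72 at 0.0671 to 0.0899, and 0 of 6 held with no filter on low values. The fitted differences kept their signs in all of these fits.

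The genes most like NINL and KIZ were sought by the root mean square difference of log2 values over the 6 libraries, after centring within each line. For NINL these were FN1 (0.259), TPST1 (0.506), SLC12A4 (0.537), ZBTB43 (0.557) and CDC40 (0.571), against a median of 1.25 over all genes. FN1, which encodes fibronectin, stood at 6.11 FPKM in K18+K14+ cells, 16.9 FPKM in the library labelled K18+Vim+ and 25.2 FPKM in K18+ cells of MDA-MB-468, and at 10.3 FPKM in K18+K14+ cells, 81.6 FPKM in K18+Vim+ cells and 50.1 FPKM in K18+ cells of HCC70. For KIZ they were PLEKHB1 (0.321), POLN (0.407), ABHD1 (0.491), PPP1R1A (0.506) and UBL7 (0.510), against a median of 1.23. Among the other 9 genes of the set CEP250 was closest to NINL, at 0.823, and CDK5RAP2 to KIZ, at 0.999. NINL and KIZ were farther from each other, at 2.02, than either was from any other gene of the set. With 6 libraries these likenesses are a description.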

How the data were processed

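RNA of 6 sorted cell samples was measured by sequencing. The authors deposited 1 table of FPKM values per Entrez Gene ID; per the submitters' processing notes, reads were aligned with TopHat2 to GRCh37, with counter, annotation and strand use not given in the sources used here. A floor of 0.1 and a ceiling of 10000 FPKM are visible, depth is unknown, and no interval for counting error can be given. The 7 rows with a blank were left out and 5 IDs listed again were used once, by the row of higher mean. Names came from RefSeq (18732 of 18795 IDs matched) and transcript lengths from GENCODE, both of build GRCh38, for 99.6% of genes tested.

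The 12454 genes averaging 1 FPKM or more were transformed to log2(FPKM + 1). The model (limma 3.58.1 with trend, R 4.3.3) had population and line as terms and left 2 residual degrees of freedom. The line, given by the labels, pairs the populations. P-values were adjusted by Benjamini-Hochberg over all genes at 0.05. They measure only the disagreement between these libraries. Python 3.11.15, pandas 2.3.3, numpy 2.4.6, statsmodels 0.14.6 (lowess length trend) and matplotlib 3.10.9 were used. The fit was also run on simulated data with independent noise and no library unlike its line. That run does not show how the fit performs on these libraries.

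The 10 genes and the lists were chosen with earlier results of these data known. Named besides them were sort antigens, line markers, 5 genes of like pattern each for NINL and KIZ, 3 tested neighbours per side, and up to 3 genes per list with the same sign in both lines and the largest smaller ratio; for the lines, PCM1, CEP72 and the other list genes that passed were named after their values were seen. Alternatives were pseudocounts of 0.1 and 5, no filter or a minimum of 5 FPKM, quantile normalization, no trend, no block, only the libraries of 2 populations, length correction, and each library left out.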

Additional observations from a re-analysis of the deposited data

Results flagged for a closer look

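Log2 ratios of opposite sign in the 2 lines were found for 4 genes in K18+K14+ against K18+ cells. PCNT had -2.49 in MDA-MB-468 and 0.27 in HCC70. CDK5RAP2 had 0.99 in MDA-MB-468 and -0.08 in HCC70, CNTROB had -0.37 in MDA-MB-468 and 0.42 in HCC70, and CEP192 had -0.30 in MDA-MB-468 and 0.02 in HCC70. In K18+Vim+ against K18+ cells the signs were opposite for 4 genes. NINL had -0.52 in MDA-MB-468 and 1.27 in HCC70, PCNT had -0.44 in MDA-MB-468 and 0.41 in HCC70, ODF2 had 0.19 in MDA-MB-468 and -0.16 in HCC70, and AKAP9 had 0.48 in MDA-MB-468 and -0.26 in HCC70. With 1 library per line and population, these differences between the lines were not tested, and for MDA-MB-468 the second set uses the library whose SMAD4, RB1 and EGFR levels are unlike its line.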

How the results depend on the processing

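No gene of the 8 passed in K18+K14+ against K18+ under any alternative run. Leaving out 1 library at a time, the count of the 10 genes passing limma ranged from 0 to 2 in K18+Vim+ against K18+ and in K18+Vim+ against K18+K14+, and from 0 to 1 between the lines. The 2 were CEP192 with KIZ, and CEP192 with NINL, each without the HCC70 K18+Vim+ library, when 12.0% and 16.0% of all genes passed; NINL and KIZ were chosen on libraries in these comparisons. Between the lines CEP192 was the 1 gene, with only the K18+K14+ and K18+ libraries or without either K18+Vim+ library. With no replicate block for cell line, or for population in the comparison of lines, the counts of passing genes among the 10 were 0, as in the blocked fits.

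Among all genes, the number passing between the lines was 1522. It was 0 with no filter on low values, 3366 with only the K18+K14+ and K18+ libraries, and 206 to 3360 with 1 library left out. In both comparisons of K18+Vim+ cells it was 0 in the full fit, but 1500 against K18+ and 1988 against K18+K14+ without the HCC70 K18+Vim+ library. Without the HCC70 K18+K14+ library 1 gene passed in each comparison of K18+K14+ cells.

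The line difference of 4 genes changed sign. That of ODF2 was -0.05 with only the K18+K14+ and K18+ libraries and ranged from -0.05 to 0.42 with 1 library left out. AKAP9 turned to 0.05 after quantile normalization and 0.04 after length correction, and ranged from -0.34 to 0.03. PCNT ranged from -0.23 to 1.15 and CDK5RAP2 from -0.17 to 0.38. A pseudocount of 5 shrank the K18+K14+ to K18+ log2 ratio of NINL to -1.73 in MDA-MB-468 and -1.18 in HCC70, as a larger pseudocount does for low values. The read depth is unknown, so the error of the low values, NINL at 1.54 FPKM among them, cannot be given.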
